A study of Rattus norvegicus and synthetic construct with 4 samples.

Results

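The elements described here are the islet reporter oligonucleotides that lie at the genes of islet transcription factors. The rule that chose them uses position, and takes elements whose midpoint fell within 25 kb of 1 of 23 points (hg19) set near the starts of such genes. The choice was made with earlier results of these data known. Of 3378 elements in the count table, 8 (0.237%) met this rule. They stood at 5 of the points, with 3 elements at PAX6, 2 at RFX3, and 1 each at NKX6-1, at HNF4A and at a point on chromosome 17 for which the list names no gene. The list names 19 genes. For the other 15 (SIX3, SIX2, NEUROD1, ISL1, RFX6, MLXIPL, MNX1, ST18, MAFA, GLIS3, PDX1, FOXA1, INSM1, NKX2-2 and FOXA2) no counted element was analysed here. At NEUROD1, which encodes a basic helix-loop-helix activator of the insulin gene, an element on chromosome 2 from 182545165 to 182545362 was paired with 2 barcodes, and neither was in the count table.

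Activity was measured by STARR-seq, a reporter assay in which the tested sequence sits in the transcribed part of a plasmid, so that its RNA output can be set against its plasmid DNA. The human islet sequences of 198 bp came from CAGE, which locates where transcripts begin, and were joined to random barcodes of 16 bases, each of which tags an independently assembled plasmid. The library was electroporated into INS1 832/13, a line from a rat insulin-producing tumour that stands in for beta cells, and cells were harvested 24 h later. The groups were 3 RNA libraries from cultures labelled as biological replicates and a single plasmid DNA library. The human elements were thus read by the transcription factors of a rat tumour line, outside their own chromosomes, and all RNA libraries come from electroporations of the same plasmid library.

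Islet endocrine cells are specified and maintained by a network of transcription factors that bind one another's genes as well as those of hormones and secretory proteins. Several of these genes use alternative promoters, and enhancers lie within and around them. NKX6-1 is a homeodomain protein needed for beta cell identity. PAX6 carries a paired domain and a homeodomain and activates the insulin and glucagon genes. RFX3 is a winged helix factor known for the control of cilia genes and for endocrine differentiation in the mouse pancreas. HNF4A is a nuclear receptor of liver and islet whose loss of function causes a monogenic diabetes, and its gene has an upstream promoter that is the one mainly used in islets.

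The 8 elements were carried by 66 counted barcodes of 136 paired with them (48.5%, against 42.2% for all counted elements). For NKX6-1, 21 of 47 paired barcodes were counted. For the PAX6 elements, from the farthest to the nearest to the point, 15 of 32, 3 of 6 and 2 of 4 were. The nearer RFX3 element kept 4 of 8 and the farther 6 of 7. HNF4A kept 9 of 16 and chromosome 17 kept 6 of 16. To show the plasmids behind the values, the barcode with the most RNA counts of each element follows as the count table lists it. These were chosen after their values were seen, and distances are from the element's midpoint to the nearest point of the rule, positive towards higher coordinates.
NKX6-1 at +1.44 kb: tggggtctttcttcct
PAX6 at -14.42 kb: ttcttggagctaggga
PAX6 at -7.17 kb: atggtgcctcgactta
PAX6 at -0.52 kb: ttggtaggcaccaatt
RFX3 at +0.84 kb: tcacgttaatgaccga
RFX3 at +1.49 kb: tcgtgcgatgtgcgtt
HNF4A at +0.35 kb: atacggtaatttattt
Chromosome 17 at +0.05 kb: catcgatcaactgtga

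None of the 8 elements was shown to be active above the centre of the library. In edgeR's quasi-likelihood test of RNA against plasmid DNA over all 3378 elements, 0 of 8 passed a Benjamini-Hochberg adjusted p of 0.05 in the upward direction, and 0 of 8 downward. The background was 8.88% of all elements above and 0% below. Their adjusted p-values lay between 0.709 and 0.999, and at an unadjusted p under 0.05 the count was also 0 of 8, with 13.5% of all elements above and 0.77% below. DESeq2, which gave an adjusted p for 5 of the 8, called 0 in either direction (23.2% of the elements for which it gave an adjusted p were above and 0% below). With limma-voom the count was also 0 of 8 both ways (15.1% of all elements above and 4.03% below). With 8 elements, a count of 0 is close to the background share, so it is not a result about the group.

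RNA/DNA is given relative to the centre of the library, the level at which normalized RNA and DNA counts are equal. This level was set from the counted elements themselves and not from sequences known to be inactive. An element at or below it is thus not shown to lack activity. At the centre, 1 plasmid DNA count went with 0.117, 0.112 and 0.120 RNA counts in RNA libraries 1, 2 and 3. A barcode with the median 24.5 DNA counts of these plasmids would thus give only a few RNA counts in a library. The fitted log2 RNA/DNA of the 8 elements ranged from -1.26 to 1.27, with a median of 0.39 beside -0.03 for all elements. Over the whole table the 10th percentile was -1.60 and the 90th percentile 1.85, so the whole group lay between them. Of the 8 elements, 5 were above 0 and 3 below, and 48.8% of all elements were above 0. The mean of the fitted values was 0.13.

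The NKX6-1 element, on chromosome 4 from 85420339 to 85420536, was the best covered and stayed below the centre throughout. It had 21 barcodes with 618 DNA counts and gave 47, 26 and 52 RNA counts in the 3 libraries. Its RNA/DNA was 0.652, 0.377 and 0.701 times the centre, with a mean of 0.576 ± 0.174 (SD, n = 3; each RNA library was divided by the single DNA library). All 3 libraries were low, and they differed among themselves by 1.86-fold. The fitted log2 ratio was -0.79 ± 0.77 (SE), with an interval of 95% from -2.33 to 0.74 and 0.839 as the adjusted p of edgeR's quasi-likelihood model. The upper end corresponds to 1.67-fold. Among the 23 elements of the table with 21 barcodes, 3 were called and the lowest of these was at 3.38-fold, which lies above that interval.

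No single plasmid held most of the RNA of the NKX6-1 element. Its leading barcode, tggggtctttcttcct, held 21 of 125 RNA counts (16.8%), the same as the median share of leading barcodes among elements with 21 barcodes. That barcode gave 2, 17 and 2 counts from 14 DNA counts. The next, ctctacacaactccta, gave 13, 2 and 4 counts from 30 DNA counts. Each passed 4 counts in 1 library only. Of the 21 barcodes, 8, 8 and 16 had any RNA in the 3 libraries, and 3, 1 and 2 passed 4 counts.

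At PAX6 the 3 elements lay 14.4, 7.17 and 0.516 kb below the point set for this gene, towards lower coordinates. Where they lie relative to the gene's start and strand was not determined. The most distant spanned 31825480 to 31825677 on chromosome 11 and was the lowest of all 8. Its 15 barcodes held 532 DNA counts and 43, 23 and 11 RNA counts. RNA/DNA was 0.692, 0.387 and 0.172 times the centre, 0.417 ± 0.261 (SD, n = 3). All 3 libraries were low. The log2 ratio was -1.26 ± 0.95 (SE), with an interval of 95% from -3.14 to 0.62 and 0.709 as the adjusted p of edgeR's quasi-likelihood model. Its upper end of 1.54-fold lay under the lowest called element with 15 barcodes, at 2.98-fold, where 10 of 64 such elements were called. No other of the 8 elements besides this one and the NKX6-1 element had its interval end below that mark.

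In the distant PAX6 element, 12 of the 15 plasmids gave at most 4 counts in every library. The exceptions were ttcttggagctaggga with 18, 0 and 1 counts, agccagtgaggggttg with 14, 0 and 1, and actgtttgatcctgac with 2, 11 and 0. Each stood out in a single library. The best loaded plasmid, tcttaacagttttgcg, with 80 DNA counts, gave 1, 1 and 3 RNA counts, where a ratio at the centre would have given 9.34, 8.93 and 9.61.

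The other PAX6 elements were thinly covered. The one from 31832737 to 31832934 had 3 barcodes, 98 DNA counts and 3, 7 and 11 RNA counts. Its RNA/DNA was 0.262, 0.640 and 0.935 times the centre, below 1 in all 3 libraries (log2 -0.70 ± 1.80 SE, adjusted p 0.972 in edgeR's quasi-likelihood test). RNA/DNA was below 1 in 3 of 3 libraries for 3 of the 8 elements, this one and those described above, and for 29.4% of all elements.

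The PAX6 element nearest to the point, from 31839386 to 31839583, had 2 barcodes, 44 DNA counts and 3, 3 and 15 RNA counts. RNA/DNA was 0.584, 0.611 and 2.84 times the centre, so that libraries 1 and 2 were low and library 3 high. The fitted value was log2 0.43 ± 1.88 (SE) with 0.996 as the adjusted p of edgeR's quasi-likelihood model. A single plasmid, ttggtaggcaccaatt, held 95.2% of the RNA counts, with 3, 3 and 14 counts from 17 DNA counts. Its companion gtattcatgtcccagt gave 0, 0 and 1 from 27. Without the leading barcode of each element the log2 ratio was -2.73, and without RNA replicate 3 it was -0.74.

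The 3 PAX6 elements were not separated from each other by these libraries. The element near the point exceeded the most distant one by a log2 difference of -0.25, 0.66 and 4.04 in libraries 1, 2 and 3, a mean of 1.49 ± 2.26 (SD, n = 3). It exceeded the middle one by 1.15, -0.07 and 1.60, a mean of 0.90 ± 0.86. The middle one exceeded the most distant by -1.40, 0.72 and 2.44, a mean of 0.59 ± 1.92. Each difference changed sign between libraries. They were not tested, since 3 libraries cannot pass 0.05 in an exact test.

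RFX3 had a pair of elements on chromosome 9 whose starts lay 645 bp apart, without shared bases. The one from 3526387 to 3526584 had the highest ratio of the 8. It had 6 barcodes with 165 DNA counts and gave 95, 26 and 18 RNA counts. RNA/DNA was 4.93, 1.41 and 0.908 times the centre, 2.42 ± 2.19 (SD, n = 3). Library 1 was high and library 3 was slightly below the centre, a range of 5.43-fold. The log2 ratio was 1.27 ± 1.03 (SE), with an interval of 95% from -0.77 to 3.32 and 0.754 as the adjusted p of edgeR's quasi-likelihood model. It ranked 610 of 3378. Without RNA replicate 1 the log2 ratio was 0.19.

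The high value in library 1 rested on a few plasmids. The barcode tcgtgcgatgtgcgtt gave 57, 0 and 6 RNA counts from 52 DNA counts, where the centre would have given 6.07, 5.80 and 6.24. Its 57 counts were the highest of any of the 66 barcodes in 1 library. The barcode tagcttaatttcccga gave 16, 12 and 3 counts from 27 DNA counts, and aggttgttagtggaag gave 20, 0 and 4 from 35. All 6 barcodes of the element had RNA in at least 2 libraries. Leaving out the leading barcode of every element of the library gave a log2 ratio of 1.36. That setting computes the centre anew, and the median of all elements went from -0.03 to -0.18. The leading barcode held 45.3% of this element's RNA counts, from 52 of its 165 DNA counts. The value of 1.36 is thus set against another centre and does not show what this barcode alone contributed.

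The RFX3 element from 3525742 to 3525939, nearer to the point, had 4 barcodes, 83 DNA counts and 17, 9 and 11 RNA counts. Its RNA/DNA was 1.75, 0.972 and 1.10 times the centre, 1.28 ± 0.419 (SD, n = 3). Library 1 was above the centre, and libraries 2 and 3 were close to it. The log2 ratio was 0.35 ± 1.79 (SE) with 0.999 as the adjusted p of edgeR's quasi-likelihood model. The RNA counts of each library came mainly from a different plasmid. The barcode tcacgttaatgaccga gave 15, 0 and 0 counts, gggccacactgtccgg gave 1, 8 and 0, and tgctggattctccagt gave 1, 0 and 11. Between the RFX3 pair, the element at higher coordinates exceeded the other by a log2 difference of 1.49, 0.54 and -0.28, a mean of 0.58 ± 0.89 (SD, n = 3), which is less than the spread between libraries.

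The HNF4A element, on chromosome 20 from 42984250 to 42984447, lay at the lower of the 2 points set for this gene, while no element was counted within 25 kb of the other. It had 9 barcodes with 240 DNA counts and gave 67, 21 and 80 RNA counts. RNA/DNA was 2.39, 0.784 and 2.78 times the centre, 1.98 ± 1.06 (SD, n = 3). Libraries 1 and 3 were high and library 2 was low. The log2 ratio was 0.99 ± 0.87 (SE), with an interval of 95% from -0.75 to 2.73 and 0.805 as the adjusted p of edgeR's quasi-likelihood model. At 9 barcodes, 8 of 160 elements were called, the lowest at 3.93-fold. The interval of the HNF4A element reached 6.61-fold, beyond that size.

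Among the plasmids of the HNF4A element, atacggtaatttattt gave 29, 3 and 38 RNA counts from 75 DNA counts, where the centre would have given 8.75, 8.37 and 9.01. It was high in libraries 1 and 3 and low in library 2. The barcode gtcctcggtaattacc gave 25, 2 and 1 counts from 12, and cattttgggtctccgt gave 0, 0 and 22 from 22. These 2 each passed 4 counts in 1 library only. The fitted log2 ratio was 1.16 when the leading barcode of every element of the library was left out. The centre was computed anew in that setting, so the value does not show what the leading barcode alone contributed.

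The element on chromosome 17 from 36104956 to 36105153 had 6 barcodes, 139 DNA counts and 36, 40 and 5 RNA counts. Its RNA/DNA was 2.22, 2.58 and 0.300 times the centre, 1.70 ± 1.23 (SD, n = 3). Libraries 1 and 2 were high and library 3 was low, a range of 8.61-fold and the widest of the 8. The log2 ratio was 0.76 ± 1.33 (SE) with 0.953 as the adjusted p of edgeR's quasi-likelihood model. It was 0.33 without RNA replicate 2 and 1.26 without RNA replicate 3. The barcode catcgatcaactgtga gave 18, 19 and 2 counts from 17 DNA counts, and gttaatgtattttaaa gave 1, 17 and 2 from 26.

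The order of the elements from high to low was RFX3 at +1.49 kb, HNF4A, chromosome 17, PAX6 at -0.52 kb, RFX3 at +0.84 kb, PAX6 at -7.17 kb, NKX6-1 and PAX6 at -14.42 kb. Neighbours in this order were not separated by their errors. All 8 intervals of 95% included a log2 ratio of 0 and every pair of them overlapped, since the highest lower bound was -0.75 and the lowest upper bound 0.62. None of the 8 was above the centre in 3 of 3 RNA libraries, against 25.8% of all elements, and 5 were above it in 1 or 2 libraries. RNA library 3 gave the highest value for 4 elements, library 1 for 3 and library 2 for 1.

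Several of the elements varied widely between libraries. The SD of log2 RNA/DNA over the 3 libraries ran from 0.431 for RFX3 at +0.84 kb to 1.67 for chromosome 17. Among elements with the same number of barcodes, 14.6% had a lower SD than the former and 86.0% than the latter. The distant PAX6 element, at 0.984, varied more than 82.8% of elements with 15 barcodes. The NKX6-1 element, at 0.481, was near the median of 0.470 for elements with 21 barcodes.

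Few single plasmids gave strong RNA output in more than 1 library. Of the 66 barcodes, 14, 8 and 9 had 5 or more RNA counts in libraries 1, 2 and 3 (21.2, 12.1 and 13.6%), where all 35153 barcodes had 22.7, 22.1 and 23.4%. In 23 barcodes (34.8%) this occurred in 1 library and in 4 barcodes (6.06%, exact 95% confidence interval 1.68 to 14.8%) in 2 libraries. Over all barcodes the shares were 28.5 and 10.2%, so that the share in 2 libraries lay within counting error of the background. The 4 were atacggtaatttattt of HNF4A, tcgtgcgatgtgcgtt and tagcttaatttcccga of RFX3, and catcgatcaactgtga of chromosome 17. No barcode of the 66 reached 5 counts in all 3 libraries (0%, exact 95% confidence interval 0 to 5.44%), while 6.43% of all barcodes did. Barcodes were taken as independent for these intervals, which cover counting error only, and barcodes of 1 element share its sequence. Of the 66 barcodes, 21 belonged to the NKX6-1 element and 15 to the distant PAX6 element, which were both below the centre in every library. The intervals are therefore no test of the group against all barcodes. Values of 5 or more held 521 of the 669 RNA counts (77.9%, against 86.4% over all barcodes), so 31 of 198 barcode values carried most of the signal.

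As a group the 8 elements did not stand apart from the rest in any fixed direction. The difference of mean log2 RNA/DNA from all other elements, with a pseudocount of 0.5 counts, was 0.49 in library 1, -0.15 in library 2 and -0.04 in library 3, a mean of 0.10 ± 0.34 (SD, n = 3). The mean log2 of the members over libraries was -0.06 ± 0.29, while the median of the fitted values was 0.39, so these summaries differ in sign. On the per-library scale the median of the 8 was 0.16, -0.41 and -0.07 in libraries 1, 2 and 3. Its mean over libraries was -0.11, beside -0.10 for all elements. The elements held 0.178% of the plasmid DNA counts and 0.147, 0.0785 and 0.0929% of the RNA counts.

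The mean of the elements close to a point was above that of the elements farther away in every library. The 4 elements within 1 kb (RFX3 at +0.84 kb, PAX6 at -0.52 kb, HNF4A and chromosome 17) had a mean log2 RNA/DNA of 0.41 ± 0.27 (SD, n = 3) and the 4 farther ones -0.53 ± 0.35. The difference was 0.81, 0.83 and 1.18 in the 3 libraries, a mean of 0.94 ± 0.21. With the leading barcode of each element left out it was -0.080, and the fitted log2 ratio of PAX6 at -0.52 kb (2 barcodes) then went from 0.43 to -2.73 and that of PAX6 at -7.17 kb (3 barcodes) from -0.70 to 0.53. Over the 5 elements with at least 5 barcodes, 2 near and 3 farther, the difference was 1.01, and 0.866 ± 0.394 (SD, n = 3) without their leading barcodes, a combination chosen after seeing the data. The farther elements ran from -1.26 to 1.27 in fitted log2 ratio and included both the highest and the lowest of the 8. At RFX3 the farther element was higher by a mean of 0.58, while at PAX6 the nearest was higher than the others by 1.49 and 0.90. The SD is over libraries of the same elements and leaves out the spread between elements. The difference by distance is a description of 4 against 4 elements, and no test was made of it. The points are given in whole kb and no gene annotation was used. Distance from a point is therefore not distance from a gene's start. Among the farther elements, NKX6-1 at +1.44 kb and RFX3 at +1.49 kb lay only slightly past the limit of 1 kb.

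The window of 25 kb did not divide a dense series. The farthest element inside it was PAX6 at -14.42 kb, and the nearest one outside was at 38.3 kb, on chromosome 12 from 121454174 to 121454371, with RNA/DNA of 1.40, 2.89 and 2.07 times the centre. The next was an element 44.2 kb below the lower HNF4A point, on chromosome 20 from 42939741 to 42939938, with 1.90, 2.37 and 1.59 times. Both were above the centre in 3 of 3 RNA libraries, and neither passed the test (adjusted p 0.718 and 0.686 in edgeR's quasi-likelihood test). In the chromosome 12 element the barcode acgctaagacttagcc gave 15, 28 and 14 counts from 15 DNA counts.

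The whole table held 1079728 counts in the plasmid DNA library and 211117, 197554 and 218571 in the RNA libraries. The median element had 6 barcodes, as had the 8 elements, whose number ranged from 2 to 21. The 669 RNA counts of the 8 elements limit every value given here.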

How the data were processed

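The authors deposited raw counts per barcode for 1 plasmid DNA library and 3 RNA libraries, with a table that pairs barcodes and elements. From their values, these deposited counts are whole and unnormalized. The deposited table is described as filtered, by a filter not given in the sources used here. Each of its barcodes shows 10 or more DNA counts and RNA in 1 or more libraries, so plasmids without RNA were not analysed here. All RNA/DNA values and counts of barcodes with RNA thus rest on plasmids that gave some RNA. Coordinates are on hg19 according to the submitters' processing notes. Element starts are printed counted from 1. No human reference sequence or gene annotation was used, so element sequences, exons, introns and strands are not given.

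Groups were taken from sample titles. The barcodes of an element were added up, and the sums entered the quasi-likelihood model of edgeR 4.0.16 under R 4.3.3, with TMM factors and RNA compared with DNA. Benjamini-Hochberg adjustment ran over 3378 elements, with a threshold of 0.05. No filter was added. The SE is the absolute log2 ratio over the square root of F. With 1 DNA library, replicate spread is estimated from the RNA libraries alone, and the model shares it across the elements of the whole table. The SE of an element therefore need not follow its own spread. RFX3 at +0.84 kb had a library SD of log2 of 0.431 and an SE of 1.79, and chromosome 17 had 1.67 and 1.33. Errors and p-values rest on electroporations of the same plasmid library, and no second plasmid DNA library enters them. Python 3.11.15, numpy 2.4.6, pandas 2.3.3 and scipy 1.17.1 were used for summaries and exact (Clopper-Pearson) intervals. Alternatives used DESeq2 1.42.0, limma 3.58.1, other filters and windows, and each RNA replicate left out.

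The elements and lists were chosen with earlier results of these data known. The rule for names takes every called element, the highest of each locus, the 5 lowest with at least 5 barcodes, overlapping elements and those nearest to the window's edge. With 8 elements all were named, and barcodes were named after their values were seen.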

Additional observations from a re-analysis of the deposited data

How the results depend on the processing

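The count of elements called above the centre was 0 under all 10 alternatives of fit or filter and with windows of 10 and 50 kb, and the lowest adjusted p of any of the 8 was 0.141 (PAX6 at -14.42 kb, limma-voom). Of 77 values of single elements under these 10 alternatives, 70 kept their sign and 7 reversed, none of them called. PAX6 at -0.52 kb reversed to -0.31 with library totals in place of TMM, -0.59 when RNA counts from 1 to 4 were taken as 0, -2.73 with the leading barcode left out and -0.74 without RNA replicate 3 (0.77 without replicate 2). RFX3 at +0.84 kb reversed to -0.38 with library totals and -0.20 with the low counts set to 0, and PAX6 at -7.17 kb to 0.53 without the leading barcode. The median of the 8 was -0.35 with library totals and -0.40 with low counts set to 0, settings that moved the median of all elements to -0.77 and -0.85. It was 0.73 over the 5 elements with at least 5 barcodes, and from -0.15 (without RNA replicate 3) to 0.42 with 1 RNA replicate left out. The difference by distance from a point was 1.46 with low counts set to 0, -0.080 without the leading barcodes, 1.01 with at least 5 barcodes, 0.866 with both of these together (chosen after seeing the data), 1.39 with 2 kb in place of 1 kb, and 0.82 to 1.01 with 1 replicate left out. The cause was not tested. With 2 kb, 6 elements counted as near, and only PAX6 at -7.17 kb and PAX6 at -14.42 kb were left as farther. The difference from all other elements moved by less than its SD throughout, though its sign was not fixed, and a change of scaling alone cannot move either difference. Over all elements, 300 were called above, against 169 (and 50 below) with library totals, 511 (and 136 below) with limma-voom, 115 with low counts set to 0 and 193 without RNA replicate 2. No paired analysis was possible because the plasmid DNA group holds 1 library. Depth limits the elements with 2 to 4 barcodes most, whose SE was at least 1.79.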

Other observations

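Of the 66 barcodes, 3 had a GC content of at least 80%, a limit chosen after the sequences were seen, where 250 of all 35153 barcodes (0.711%) did. They were gcgggcggggaggggc (93.8%) of the chromosome 17 element, with 0, 3 and 0 RNA counts from 23 DNA counts, gggggcgagaagggcc (81.2%) of the HNF4A element, with 0, 14 and 0 from 20, and cgcgggccgcgtgatc (81.2%) of the NKX6-1 element, with 0, 0 and 1 from 28. Each had RNA in 1 library only, as had 31 of the 66 barcodes (47.0%) and 37.5% of all barcodes. The median GC content was 43.8% in both sets.

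The barcode ttattttttcatcttt of the element 44.2 kb below the lower HNF4A point gave 0, 27 and 26 RNA counts from 57 DNA counts, and gttcaaaactttcttg of the same element gave 25, 34 and 2 from 23. The library sums of that element gave 1.90, 2.37 and 1.59 times the centre, and neither plasmid passed 4 counts in all 3 libraries.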
